A study of Mus musculus with 19 samples.

Results

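The 9 genes described here encode connexins (Gja1, Gja5 and Gjc1), Iroquois transcription factors (Irx3, Irx4 and Irx5), the T-box transcription factor Tbx5 and pacemaker channels (Hcn2 and Hcn4). They were chosen by name, with earlier results of these data known, and all 9 were found among the 29726 genes of the expression table. The table covers 19 hearts, each sequenced as 1 library of oligo(dT)-selected RNA. The groups were 5 females with the dysbiotic microbiome (F_DM), 5 females with the normal microbiome (F_NM), 5 males with the dysbiotic microbiome (M_DM) and 4 males with the normal microbiome (M_NM).

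All mice were wild type, of the strain C57BL/6NTac, 2 months old, and had been raised germ-free before colonisation by fecal transfer. The dysbiotic microbiome came from Il10-/- donors, a strain prone to colitis, and the normal microbiome came from wild-type donors. RNA came from a frozen piece of cardiac tissue per mouse, and the labels do not say from which chamber. No cage, litter or library batch is given, so effects of the microbiome and of any cage or batch that follows the groups cannot be told apart, and the p-values measure the spread between these mice.

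Connexins are the subunits of gap junction channels, which pass current directly from one heart muscle cell to the next. Connexin 43 (Gja1) joins working myocytes, connexin 40 (Gja5) is found in atrial muscle, in the fast ventricular conduction system and in arterial endothelium, and connexin 45 (Gjc1) is the connexin of nodal tissue. HCN channels carry the pacemaker current, and Iroquois and T-box factors set chamber identity and the pattern of conduction and repolarisation genes across the ventricular wall.

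The windows from 250 bases before to 50 bases after the annotated start of the 4 genes on which the results below turn are shown first, from RefSeq on build GRCm38.p6. Irx4 (chr13:73260247-73260546, plus strand), Gja5 (chr3:97032152-97032451, plus strand) and Gja1 (chr10:56377050-56377349, plus strand) were higher with the dysbiotic microbiome over both sexes, and Hcn2 (chr10:79716384-79716683, plus strand) was the 1 member called for a difference of response between the sexes, a call that was lost without any 1 of 14 hearts and turned to -0.07 (adjusted p = 0.856) with a correction for GC content. Capitals mark matches, on either strand, to the GC box GGGCGG and to the nuclear receptor half-site AAGGTCA.
Irx4: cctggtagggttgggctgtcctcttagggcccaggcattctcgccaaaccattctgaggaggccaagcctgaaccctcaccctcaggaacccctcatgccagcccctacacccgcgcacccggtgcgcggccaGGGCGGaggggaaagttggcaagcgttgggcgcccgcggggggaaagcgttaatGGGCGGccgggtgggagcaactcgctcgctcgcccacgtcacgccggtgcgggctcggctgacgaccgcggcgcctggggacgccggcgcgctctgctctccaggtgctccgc
Gja5: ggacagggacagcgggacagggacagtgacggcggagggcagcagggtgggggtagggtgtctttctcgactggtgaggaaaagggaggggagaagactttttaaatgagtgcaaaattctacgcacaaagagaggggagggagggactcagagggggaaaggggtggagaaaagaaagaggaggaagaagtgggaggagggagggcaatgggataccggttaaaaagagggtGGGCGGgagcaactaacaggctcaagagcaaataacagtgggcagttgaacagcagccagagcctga
Gja1: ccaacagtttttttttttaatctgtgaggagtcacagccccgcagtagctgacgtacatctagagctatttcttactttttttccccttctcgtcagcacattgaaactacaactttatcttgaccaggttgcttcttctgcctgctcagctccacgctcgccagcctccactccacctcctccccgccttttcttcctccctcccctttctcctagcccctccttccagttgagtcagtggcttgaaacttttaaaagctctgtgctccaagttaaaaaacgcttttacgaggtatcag
Hcn2: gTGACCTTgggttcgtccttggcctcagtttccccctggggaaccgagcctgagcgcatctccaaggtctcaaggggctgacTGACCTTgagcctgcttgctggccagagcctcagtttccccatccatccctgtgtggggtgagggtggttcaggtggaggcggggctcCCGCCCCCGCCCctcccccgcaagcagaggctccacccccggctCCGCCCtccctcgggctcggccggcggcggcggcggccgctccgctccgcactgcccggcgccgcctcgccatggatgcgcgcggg
The Irx4 and Hcn2 windows held 70.7% and 72.3% GC with 31 and 26 CpG dinucleotides, the Gja5 window 55.7% GC with 7 and the Gja1 window 47.7% GC with 8, against medians of 52.7% GC and 7 CpG over 32851 promoter windows. The GC box was found in 4 of the 6 members with a window (Gja5, Hcn2, Hcn4 and Irx4) and in 35.7% of all windows. AAGGTCA was found only in the Hcn2 window among these 6, with 2 matches, and in 4.72% of all windows. The T-box half-site AGGTGT was found in the Hcn4 window alone among the 6, and in 13.7% of all windows. TNAAGTG, the NKX2-5 site, ACANNTGT, the Iroquois site, and the E-box CACGTG had no match in the 6 windows and were present in 11.5%, 7.38% and 7.15% of all windows. Motifs were searched on both strands, and adjacent GC boxes in the Hcn2 window form a single run of capitals. Gjc1, Irx5 and Tbx5 are named only.

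Values are FPKM, a measure of fragments scaled by transcript length and library size, so levels can be compared between genes per length. The read depth behind them is unknown, because the table gives no counts. Fold changes were computed as log2 of (FPKM + 1) and are given ± SE, a scale that understates the change of genes near 1 FPKM. A gene was called higher or lower where limma gave a two-sided adjusted p (Benjamini-Hochberg) under 0.05 over the 10866 genes that reached 1 FPKM in 4 or more hearts, and all 9 genes passed that filter. In bulk tissue, fewer cells of a type and less RNA per cell cannot be told apart.

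Markers of heart muscle were high in every heart. The 6 cardiomyocyte markers summed to 10711 to 14433 FPKM, ventricular markers to 3250 to 4871 FPKM and atrial markers to 1416 to 4242 FPKM, while the T cell genes Cd3d and Cd3e stayed below 0.1 FPKM in every heart. The labels also name cardiocytes as the cell type, but fibroblast markers (125 to 148 FPKM) and endothelial markers (97.9 to 122 FPKM) were present in all 19 hearts. Markers of hepatocytes, which are not heart cells, were also present in most hearts. Male dysbiotic heart 5 stood apart from its group, with the highest ventricular sum (4871 FPKM, against 3416 to 3908 in the other 4) and a hepatocyte marker sum of 1.54 FPKM, against 295 to 346 in the other 4. Female dysbiotic hearts 3 and 5 were also low in that sum (1.25 and 0.299 FPKM). The remaining hearts had 48.5 to 723 FPKM, and the source of these transcripts was not tested. Female dysbiotic heart 5 had a B cell marker sum of 34.7 FPKM, against 2.03 to 11.2 in the other 4 of its group. Results that rest on these hearts are given with and without them.

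Across all hearts the 9 transcripts ranged widely in level. Gja1 (7.98 to 19.8 FPKM) and Tbx5 (6.91 to 10.3 FPKM) were the most abundant per length, followed by Irx4 (3.89 to 8.44 FPKM) and Irx3 (4.28 to 10.2 FPKM). Hcn2 (2.41 to 4.14 FPKM), Gjc1 (1.88 to 2.80 FPKM), Gja5 (1.19 to 3.75 FPKM), Irx5 (0.961 to 3.01 FPKM) and Hcn4 (0.713 to 1.76 FPKM) were lower. In females the levels of Gja1 and Tbx5 overlapped: Gja1 averaged 10.6 ± 1.70 FPKM and Tbx5 9.23 ± 0.767 FPKM with the dysbiotic microbiome, and Gja1 8.96 ± 1.02 FPKM and Tbx5 9.26 ± 0.468 FPKM with the normal one (SD, n = 5 each). In males every heart had more Gja1 than the highest Tbx5 value of its group, with means of 16.8 ± 2.67 and 8.82 ± 1.14 FPKM with the dysbiotic microbiome (n = 5) and 12.5 ± 1.48 and 7.91 ± 1.05 FPKM with the normal one (n = 4).

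**Figure D1:**
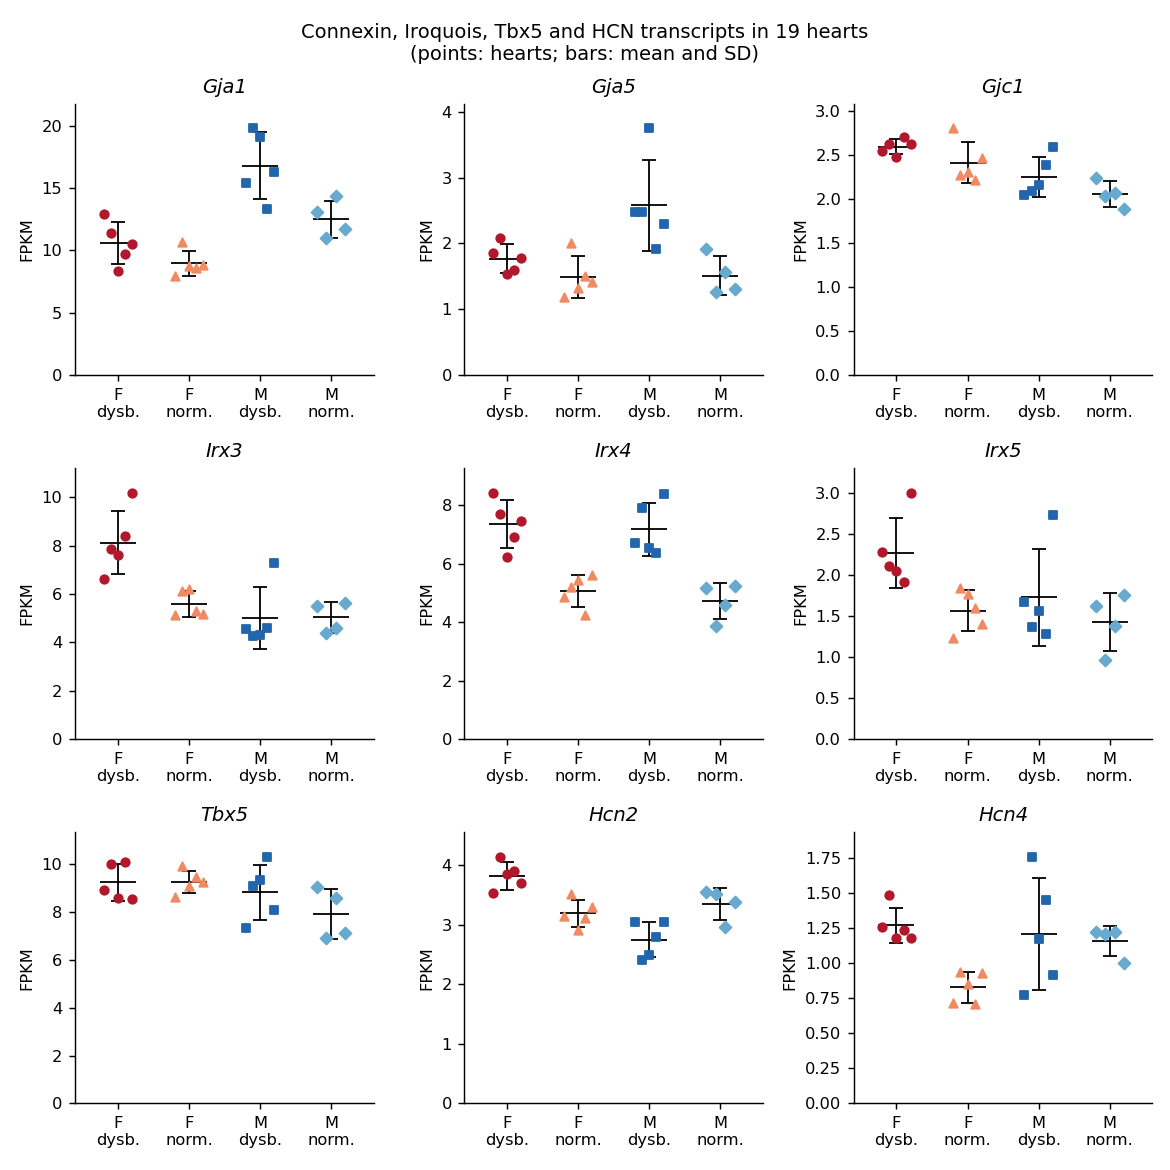
Each panel plots the FPKM of 1 gene in every heart, by sex (F, M) and microbiome (dysbiotic, normal), with the group mean and SD as bars. Irx4 separates the microbiomes in both sexes, Gja5 in males, and Irx3, Irx5, Hcn2 and Hcn4 in females, while Gja1 separates the sexes within each microbiome. The genes that separate the microbiomes in females are those with the most GC (58.0% to 65.4%).

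Over both sexes, 3 of the 9 genes were called higher with the dysbiotic microbiome and 0 lower: Irx4, Gja5 and Gja1. Of all 10866 genes tested, 5.67% were called in that comparison, and 3.34% were called higher. The median log2 change of the 9 genes was 0.22, and that of all genes tested was 0.02. The 9 were chosen with earlier results of these data known, so the shares and medians describe them and do not test the list. By sex, 2 of the 9 were called higher in males (Irx4 and Gja5), where 1.91% of all genes were called and 0.957% were higher, and 2 in females (Irx4 and Irx3), where 2.84% were called and 1.86% were higher. In males, 2 of the 9 genes had dysbiotic values all above the normal ones, against 2.49% of all genes tested. In females, 5 of the 9 did (Irx3, Irx4, Irx5, Hcn2 and Hcn4), against 3.27% of all genes tested. These 5 were the members richest in GC, at 58.0% to 65.4% of the transcript, against 42.2% to 52.8% in the rest. With a correction for GC content, added after seeing the data, only Irx4 was called in females. The female change of Hcn2 then turned in sign, as given below. The part of GC content in this count was not tested. The comparison over both sexes contains the same hearts as the comparisons within each sex, so these counts are not independent. Without both dysbiotic heart 5s, an alternative chosen after seeing the data, 2 genes were called over both sexes (Irx4 and Gja5), 2 in males and 2 in females.

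Markers of other cell types moved in the same comparisons. Of 7 endothelial markers, 2 were higher over both sexes (Emcn and Tek) and 1 in males (Emcn). Their sums were 104 to 119 FPKM in dysbiotic females, against 105 to 122 FPKM in normal females, and 102 to 114 FPKM in dysbiotic males, against 97.9 to 110 FPKM in normal males. Of 7 fibroblast markers, 2 were lower over both sexes and in females (Col1a1 and Col3a1), with sums of 125 to 137 FPKM in dysbiotic females, against 131 to 145 FPKM in normal females, and 127 to 138 FPKM in dysbiotic males, against 126 to 148 FPKM in normal males. Of 5 epicardial markers, 1 was tested (Upk3b), and it was lower in males. Over all 10866 genes tested, 363 were called higher and 253 lower over both sexes. In females 202 were higher and 107 lower, and in males 104 and 103. The marker genes above were named after their values were seen, and their part in the changes of the 9 genes was not tested.

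**Figure D2:**
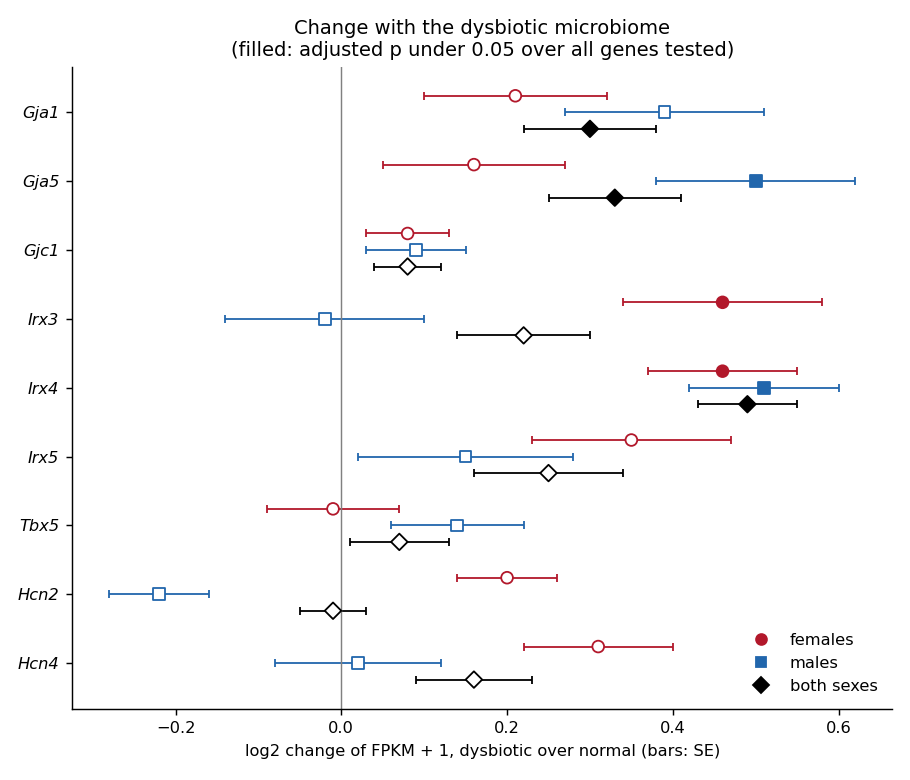
Points give the log2 change of FPKM + 1, dysbiotic over normal, in females, males and both sexes, with bars for the SE, and filled points passed the adjusted p of 0.05. Irx4 is filled in all 3 comparisons, at 0.46 to 0.51, whereas Hcn2 lies at 0.20 in females and -0.22 in males, both unfilled.

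Irx4, the Iroquois factor restricted to ventricular muscle, had 8.44, 7.72, 6.25, 6.91 and 7.48 FPKM in dysbiotic females, against 4.87, 5.20, 5.46, 4.26 and 5.63 FPKM in normal females. In males it had 6.71, 7.90, 6.55, 6.36 and 8.39 FPKM with the dysbiotic microbiome, against 5.18, 3.89, 4.60 and 5.24 FPKM with the normal one. Every dysbiotic heart was above every normal heart, within and across the sexes. The log2 change was 0.49 ± 0.06 over both sexes (adjusted p = 0.000121), 0.46 ± 0.09 in females (adjusted p = 0.00640) and 0.51 ± 0.09 in males (adjusted p = 0.00757). The response of females minus that of males was -0.06 ± 0.13 (adjusted p = 0.949), with a 95% interval of -0.32 to 0.21. Females and males did not differ beyond the spread between hearts in its level (0.06 ± 0.06, adjusted p = 0.50). All 3 calls of Irx4 held under every alternative run, including the loss of any 1 heart. Its transcript has 60.9% GC, more than 97.4% of the genes tested, and a correction for GC content gave 0.43 over both sexes (adjusted p = 0.000203). The authors' deposited table gives a ratio of 1.48 for Irx4, sexes pooled, with a q-value of 8.39e-10. The sum of the ventricular markers, which define the cells that express Irx4, was 3250 to 4026 FPKM in dysbiotic females, against 3662 to 4001 FPKM in normal females. In males that sum was 3416 to 4871 FPKM with the dysbiotic microbiome, against 3498 to 3765 FPKM with the normal one. Of these 3 markers, 0 were called between the microbiomes in either direction.

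Gja5, connexin 40, had 1.85, 2.08, 1.53, 1.59 and 1.78 FPKM in dysbiotic females, against 1.19, 2.01, 1.32, 1.51 and 1.41 FPKM in normal females. In males it had 2.48, 2.47, 3.75, 1.92 and 2.30 FPKM with the dysbiotic microbiome, against 1.91, 1.26, 1.57 and 1.31 FPKM with the normal one. The groups overlapped in females through the normal heart at 2.01 FPKM, and in males they did not overlap, by a margin of 1.92 against 1.91 FPKM. The log2 change was 0.33 ± 0.08 over both sexes (adjusted p = 0.0173), 0.50 ± 0.12 in males (adjusted p = 0.0330) and 0.16 ± 0.11 in females (adjusted p = 0.612). The difference between the sexes in this response was -0.34 ± 0.16 and did not pass (adjusted p = 0.665). In the authors' deposited table the ratio of Gja5 is 1.45, with a q-value of 0.0180. The call over both sexes was kept without any 1 heart (adjusted p from 0.00709 to 0.0466) and had adjusted p = 0.0572 with no expression filter and 0.0772 with no sex term. In males it was lost without dysbiotic heart 1, 2 or 3 or normal heart 2, 3 or 4, with adjusted p-values of 0.0527 to 0.136 and log2 changes of 0.39 to 0.51. Males fitted alone gave adjusted p = 0.126.

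The sum of the 6 atrial markers varied between the tissue pieces. The male dysbiotic heart with 3.75 FPKM of Gja5 had the highest sum (4242 FPKM). In both normal groups the heart with the highest Gja5 also had the highest atrial sum (3097 FPKM in females and 3541 FPKM in males). Normal males 4 and 2 had the lowest sums of all hearts (1416 and 1572 FPKM). Their Gja5, at 1.31 and 1.26 FPKM, was the lowest of their group. Some dysbiotic hearts did not follow that order. Male dysbiotic heart 4, with a sum of 2630 FPKM, had the lowest Gja5 of its group (1.92 FPKM). Male dysbiotic heart 2 had the lowest sum of that group (2083 FPKM) and 2.47 FPKM of Gja5. Female dysbiotic heart 3 had a sum of 2668 FPKM and the lowest Gja5 of its group (1.53 FPKM). Nppa, at 970 to 3069 FPKM, was the most abundant of the 6 markers. Of the 6 atrial markers, 0 were called between the microbiomes. Atrial sums were 2324 to 2781 FPKM in dysbiotic females, against 1850 to 3097 FPKM in normal females, and 2083 to 4242 FPKM in dysbiotic males, against 1416 to 3541 FPKM in normal males. The atrial sum as a covariate was an alternative chosen after seeing the data. With it, Gja5 rose by 0.25 over both sexes (adjusted p = 0.0193), against 0.33 in the reported fit. In males it rose by 0.40 (adjusted p = 0.0257), against 0.50, and in females by 0.097 (adjusted p = 0.679), against 0.16. The part of atrial tissue in the change of Gja5 was not tested. General endothelial markers moved too, as given above: 2 of 7 were higher over both sexes and 1 of 7 in males, the comparisons in which Gja5 was called, and their part in the change of Gja5 was not tested. The 7 arterial endothelial markers, of another cell type that uses connexin 40, summed to 18.0 to 24.0 FPKM over all hearts, and 0 of the 6 tested were called between the microbiomes. Exons of Gja5 overlap those of Gpr89 on the opposite strand, which was at 2.34 to 3.37 FPKM, and whether the libraries keep strand is not given in the sources used here.

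**Figure D3:**
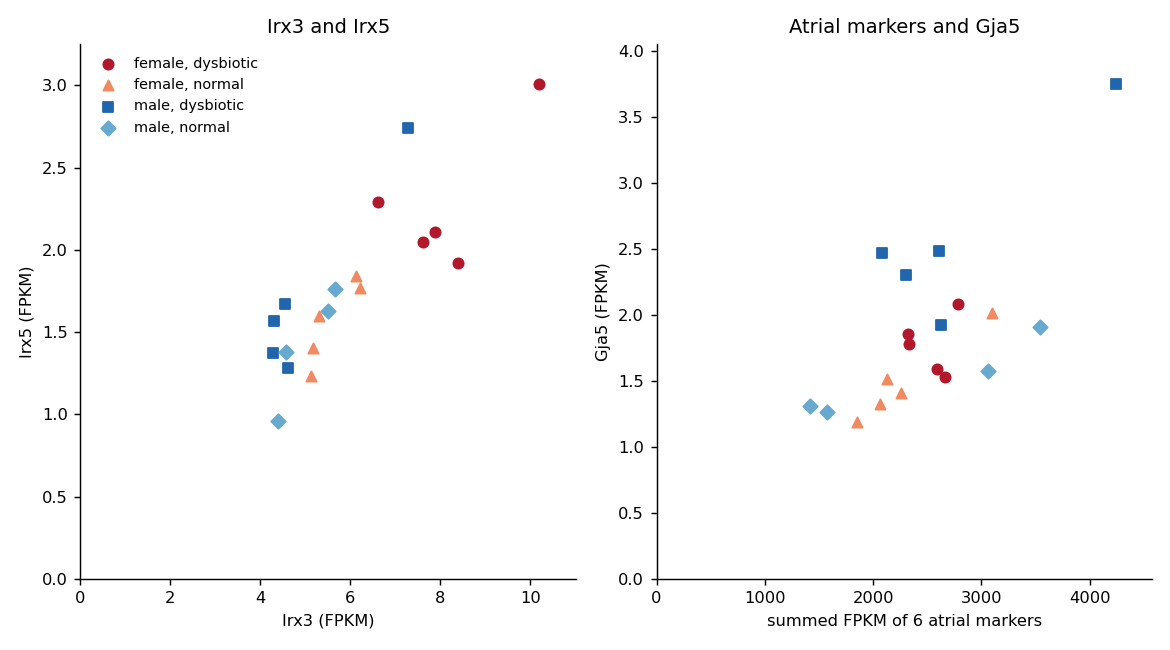
Points are hearts, coloured by sex and microbiome. The left panel plots Irx5 against Irx3 (FPKM), where the male dysbiotic heart at 7.28 and 2.74 FPKM lies apart from the other 4 of its group, and the right panel plots Gja5 (FPKM) against the summed FPKM of 6 atrial markers, where the heart with 3.75 FPKM of Gja5 has the highest sum.

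Gja1, connexin 43, the main connexin of working ventricular and atrial muscle, had 12.9, 11.4, 8.37, 9.71 and 10.5 FPKM in dysbiotic females, against 7.98, 10.7, 8.75, 8.57 and 8.81 FPKM in normal females. In males it had 15.4, 19.8, 19.1, 13.3 and 16.3 FPKM with the dysbiotic microbiome, against 13.1, 11.0, 14.4 and 11.7 FPKM with the normal one. The microbiome groups overlapped in both sexes, with 4 of 5 dysbiotic males above the highest normal male. Over both sexes Gja1 rose by 0.30 ± 0.08 (adjusted p = 0.0328), with 0.39 ± 0.12 in males (adjusted p = 0.107) and 0.21 ± 0.11 in females (adjusted p = 0.438). The 2 responses did not differ beyond their error (-0.18 ± 0.16, adjusted p = 0.876). This call was the least stable of the 3: leaving out any 1 of 11 hearts (female dysbiotic 1, 2 and 5, female normal 1, 3, 4 and 5, male dysbiotic 2 and 3, male normal 2 and 4) gave adjusted p-values of 0.0501 to 0.0844. It had adjusted p = 0.0937 with no expression filter, 0.362 with no sex term and 0.0818 with the atrial sum as a covariate. Without male dysbiotic heart 4 the male change was called (0.46, adjusted p = 0.0421). The authors' deposited table gives Gja1 a ratio of 1.3 and a q-value of 0.604.

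Gjc1, connexin 45, had 2.47 to 2.70 FPKM in dysbiotic females, against 2.21 to 2.80 FPKM in normal females, and 2.04 to 2.59 FPKM in dysbiotic males, against 1.88 to 2.24 FPKM in normal males. Its change was 0.08 ± 0.04 over both sexes (adjusted p = 0.276), with a 95% interval of 0.00 to 0.17. Among the 3 connexins together, Gja1 made up 70.6 ± 2.54% of summed FPKM in dysbiotic females and 69.6 ± 1.80% in normal females (SD, n = 5 each). In males the share was 77.5 ± 2.21% with the dysbiotic microbiome (n = 5) and 77.8 ± 1.72% with the normal one (n = 4). The share of Gja1 thus lay at 66.7% to 74.6% in females and 75.6% to 81.3% in males, with no overlap between the sexes. Gja5 made up 10.1% to 15.0% of the FPKM of these 3 connexins in dysbiotic males, against 8.76% to 11.1% in normal males. Other connexins are outside these shares, such as Gja4, at 4.17 to 5.70 FPKM in dysbiotic males and 4.62 to 5.09 FPKM in normal males.

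Irx3, the Iroquois factor of the ventricular conduction system, and Irx5, which patterns repolarisation across the ventricular wall, lie on chromosome 8 (chr8:91798525-91802067 and chr8:92357625-92376286, GENCODE M21 on GRCm38), 555557 bases apart on opposite strands. In females, Irx3 had 6.62, 7.88, 7.61, 8.40 and 10.2 FPKM with the dysbiotic microbiome, against 5.12, 6.13, 6.22, 5.31 and 5.17 FPKM with the normal one. Males had 4.55, 4.28, 4.30, 4.61 and 7.28 FPKM of Irx3 with the dysbiotic microbiome, against 5.51, 4.40, 4.58 and 5.65 FPKM with the normal one. Every dysbiotic female was above every normal female, whereas the male groups overlapped, and 1 dysbiotic male stood far above the other 4.

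Irx3 was higher in dysbiotic females by 0.46 ± 0.12 (adjusted p = 0.0353), with -0.02 ± 0.12 in males (adjusted p = 0.968) and 0.22 ± 0.08 over both sexes (adjusted p = 0.157). The difference between the sexes in its response was 0.49 ± 0.17 and did not pass (adjusted p = 0.429). Without male dysbiotic heart 5, which held the high value, it was 0.61 (adjusted p = 0.0202). Without both the female and the male dysbiotic heart 5 it was 0.53 (adjusted p = 0.0223). Over all genes tested, 41 were called higher and 2 lower for this difference in the reported fit. Without male dysbiotic heart 5 they numbered 100 and 2, and without both 90 and 1. The female call was lost without dysbiotic heart 2, 3, 4 or 5 or normal heart 1, 4 or 5 (adjusted p from 0.0510 to 0.0928), and with no expression filter (adjusted p = 0.10). Irx3 has a GC content of 62.5%, above 98.8% of the genes tested, and after the GC correction its female change was 0.28 (adjusted p = 0.106). The antisense gene Irx3os, whose exons overlap those of Irx3, was at 0.0277 to 0.167 FPKM.

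Irx5 is the least abundant of the 3 Iroquois members. It had 2.29, 2.11, 2.05, 1.92 and 3.01 FPKM in dysbiotic females, against 1.23, 1.84, 1.77, 1.60 and 1.40 FPKM in normal females. In males it had 1.67, 1.37, 1.57, 1.28 and 2.74 FPKM with the dysbiotic microbiome, against 1.63, 0.961, 1.38 and 1.76 FPKM with the normal one. The female groups did not overlap and the male groups did, and the same male heart, dysbiotic 5, had the highest male value of both genes. The change of Irx5 was 0.35 ± 0.12 in females (adjusted p = 0.169), 0.15 ± 0.13 in males (adjusted p = 0.661) and 0.25 ± 0.09 over both sexes (adjusted p = 0.130), so it was not called. Without that heart the male change was 0.03 (adjusted p = 0.947). Irx5 has 65.4% GC, and the GC correction left 0.01 in females (adjusted p = 0.977) and gave 0.30 in males (adjusted p = 0.167). The ratio of Irx5 to Irx3 averaged 0.281 ± 0.0430 in dysbiotic females and 0.279 ± 0.0251 in normal females (SD, n = 5 each). In males it averaged 0.341 ± 0.0417 with the dysbiotic microbiome (n = 5) and 0.281 ± 0.0427 with the normal one (n = 4).

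Tbx5, which activates chamber and conduction genes, including Gja5, did not pass in any microbiome comparison. It had 8.54 to 10.1 FPKM in dysbiotic females, against 8.62 to 9.90 FPKM in normal females, and 7.32 to 10.3 FPKM in dysbiotic males, against 6.91 to 9.03 FPKM in normal males. The groups overlapped in both sexes. Its change over both sexes was 0.07 ± 0.06 (adjusted p = 0.625), with a 95% interval of -0.05 to 0.19, and in females -0.01 ± 0.08 (adjusted p = 0.992).

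Hcn2, the HCN channel widely expressed in working myocytes, had 3.53, 4.14, 3.85, 3.90 and 3.70 FPKM in dysbiotic females, against 3.14, 3.51, 2.91, 3.11 and 3.30 FPKM in normal females. Dysbiotic males had 3.04, 2.41, 2.49, 2.79 and 3.05 FPKM of Hcn2, against 3.55, 3.52, 2.96 and 3.38 FPKM in normal males. All dysbiotic females were above all normal females, and 3 of 5 dysbiotic males were below every normal male. The change was 0.20 ± 0.06 in females (adjusted p = 0.0728) and -0.22 ± 0.06 in males (adjusted p = 0.0899), neither called, although median-ratio scaling gave -0.24 in males (adjusted p = 0.0422) and array weights 0.22 in females (adjusted p = 0.0284). Over both sexes it was -0.01 ± 0.04 (adjusted p = 0.961). The response of females minus that of males was 0.42 ± 0.09 (adjusted p = 0.0346), which made Hcn2 the 1 member of 9 called in the test of this difference, where 0.396% of all genes were called and 0.377% were higher.

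The Hcn2 transcript is rich in GC, at 65.4%, above 99.7% of the genes tested, and the 43 genes called in this test had a median of 56.1%, against 50.1% for all genes tested. After the GC correction, an alternative chosen after seeing the data, the difference was -0.07 (adjusted p = 0.856) and the female change -0.14 (adjusted p = 0.252), so both turned. The call was also lost with no expression filter (adjusted p = 0.0836) and without any 1 of 14 hearts, namely female dysbiotic 2 to 5, female normal 1, 3, 4 and 5, male dysbiotic 2, 3 and 4 and male normal 1, 2 and 4 (adjusted p from 0.0555 to 0.0986).

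**Figure D4:**
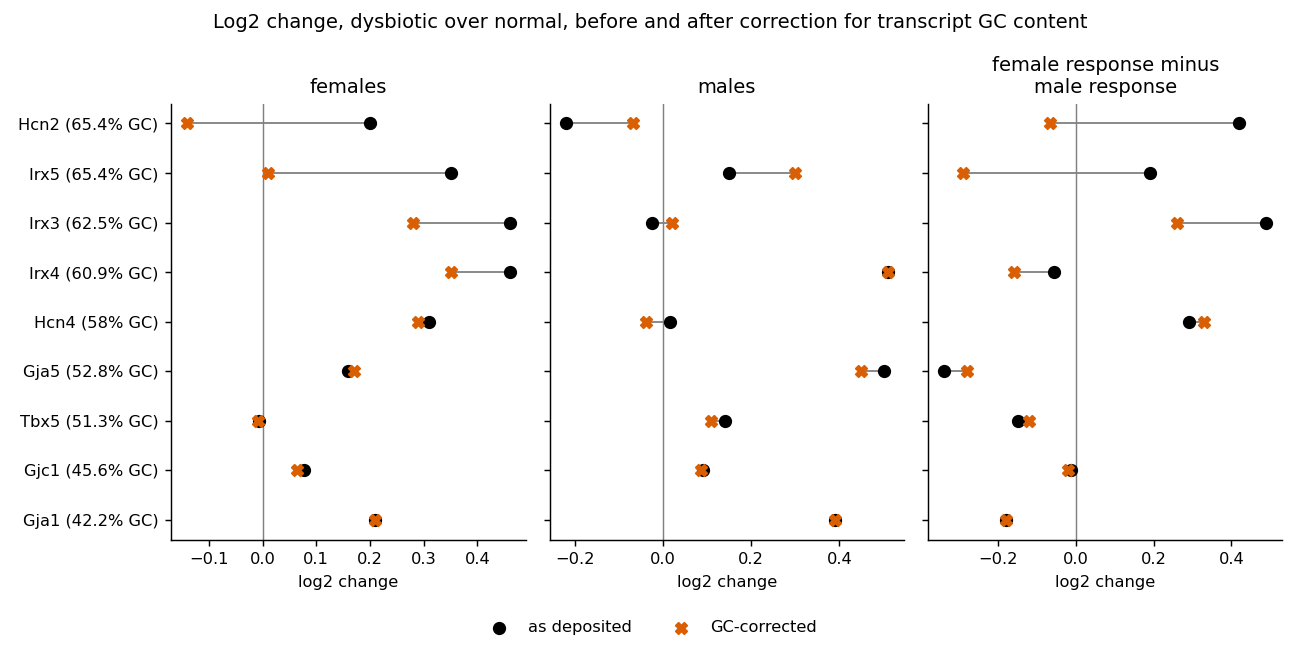
For each gene, ordered by the GC content of its longest transcript, the log2 change (dysbiotic over normal) is plotted before (circle) and after (cross) a correction for GC content, in females, in males and as the difference of the responses. Hcn2 lies at -0.07 corrected and at 0.42 as deposited in the difference, while Irx4 in males stays at 0.51 and Gja1 in females at 0.21. The change of Irx4 was smaller after the correction in females, and also over both sexes, which is not plotted.

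Hcn4, the main pacemaker channel of the sinoatrial node, was the least abundant of the 9. It had 1.26, 1.49, 1.18, 1.24 and 1.18 FPKM in dysbiotic females, against 0.719, 0.936, 0.850, 0.713 and 0.930 FPKM in normal females. In males it had 0.774, 1.76, 1.17, 1.45 and 0.919 FPKM with the dysbiotic microbiome, against 1.22, 1.21, 1.22 and 1.00 FPKM with the normal one. The female groups did not overlap, and the dysbiotic males spread to both sides of all normal males. The change was 0.31 ± 0.09 in females (adjusted p = 0.0700), 0.02 ± 0.10 in males (adjusted p = 0.972) and 0.16 ± 0.07 over both sexes (adjusted p = 0.181). The female change, at the same 0.31, had adjusted p = 0.0101 with females fitted alone, and 0.0367 and 0.0263 in the fit of both sexes without male dysbiotic heart 1 or 2. After the GC correction it was 0.29 (adjusted p = 0.0838). The 8 nodal markers summed to 10.4 to 11.8 FPKM in dysbiotic females, against 10.3 to 12.7 FPKM in normal females, and 0 of the 3 tested were called. The ratio of Hcn4 to Hcn2 was 0.332 ± 0.0249 in dysbiotic females and 0.260 ± 0.0294 in normal females (SD, n = 5 each), with ranges of 0.306 to 0.359 and 0.229 to 0.292 that did not overlap. In males the ranges overlapped, at 0.255 to 0.733 with the dysbiotic microbiome and 0.297 to 0.413 with the normal one. These ratios were taken without the GC correction.

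Between the sexes, over both microbiomes, 4 of the 9 genes were called, 3 higher and 1 lower in females, where 31.4% of all genes tested were called, 23.4% higher and 7.94% lower. Gja1 was lower in females by 0.53 ± 0.08 on the log2 scale (a change of -0.53, adjusted p = 7.81e-05). Females and males did not overlap in Gja1 within either microbiome: dysbiotic females reached 12.9 FPKM while dysbiotic males began at 13.3 FPKM, and normal females reached 10.7 FPKM while normal males began at 11.0 FPKM. Over all genes tested, 9.49% did not overlap between dysbiotic females and dysbiotic males, and 18.5% did not between normal females and normal males. Irx3 (0.37 ± 0.08, adjusted p = 0.00265), Hcn2 (0.16 ± 0.04, adjusted p = 0.00958) and Gjc1 (0.15 ± 0.04, adjusted p = 0.00696) were higher in females. Hcn2 did not overlap between the sexes in dysbiotic mice (from 3.53 FPKM in females, up to 3.05 FPKM in males) but did in normal mice. Its sex difference was 0.01 after the GC correction (adjusted p = 0.919), and had adjusted p = 0.0616 with median-ratio scaling and 0.0572 with upper-quartile scaling. In normal mice Hcn4 was lower in every female (0.713 to 0.936 FPKM) than in every male (1.00 to 1.22 FPKM), and in dysbiotic mice the sexes overlapped.

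Gja5 (-0.19 ± 0.08, adjusted p = 0.0808) and Tbx5 (0.14 ± 0.06, adjusted p = 0.0799) lay near the threshold between the sexes. Gja5 passed without male dysbiotic heart 4 or female normal heart 2 (-0.22 each, adjusted p of 0.0367 at most), with median-ratio and upper-quartile scaling and the GC correction (-0.22 to -0.24), and with the atrial sum as a covariate (-0.18, adjusted p = 0.0230). It did not pass with scaling by FPKM outside the mitochondrial genome (-0.19, adjusted p = 0.0735). Tbx5 passed without male dysbiotic heart 4 or male normal heart 1 (0.16 and 0.17, adjusted p of 0.0350 at most), and with the atrial sum as a covariate. Irx5 had 0.18 ± 0.09 (adjusted p = 0.136) and passed without male dysbiotic heart 5 (0.24, adjusted p = 0.0149). It also passed with array weights and without both dysbiotic heart 5s. In this comparison the share of higher among all called genes was 74.7% as deposited, 48.5% with median-ratio scaling and 50.8% with upper-quartile scaling. Gja1 (-0.53) and Irx3 (0.23) kept their direction and their call after the GC correction, and Gjc1 kept its call. Hcn4, not called in the reported fit (-0.09 ± 0.07, adjusted p = 0.286), was called with that correction.

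The members varied together in some pairs and not in others. Over the 19 hearts, the deviations of log2 levels from the group means had a Pearson r of 0.84 for Irx3 and Irx5, 0.73 for Gja1 and Gja5, 0.64 for Tbx5 and Hcn4, 0.57 for Irx4 and Irx5 and 0.55 for Gja1 and Irx4. Without both dysbiotic heart 5s, r was 0.56 for Irx3 and Irx5, 0.73 for Gja1 and Gja5, 0.61 for Tbx5 and Hcn4, 0.49 for Irx4 and Irx5 and 0.61 for Gja1 and Irx4 (17 hearts). Among dysbiotic females 1 to 4, the heart with the lowest Irx3 (6.62 FPKM) had the highest Irx5 (2.29 FPKM), and that with the highest Irx3 (8.40 FPKM) the lowest Irx5 (1.92 FPKM). Over all 19 hearts these were the 5 of 36 pairs above 0.5, and the lowest was -0.44, for Irx5 and Hcn4. The values of a heart share its library and its piece of tissue, so they are given as a description.

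Among all genes tested, those whose levels ran most like the 3 genes called over both sexes were named by Pearson r of log2 levels over the 19 hearts, which share sex and microbiome differences as well as libraries. For Irx4 they were Meis1 and Pirt (r = 0.93 each) and Lrrc3b (0.92). Gja1 ran most like Lbh and Mgat5 (0.91 each) and Phyhip (0.90), and Gja5 most like Tgfb2 (0.87), Ccn5 and Trim16 (0.86 each). The log2 changes over both sexes were 0.20 for Meis1, 0.43 for Lbh and 0.24 for Tgfb2.

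Other genes of the same families and pathways were read in the same fit. Of the other Iroquois factors, Irx2 was higher in dysbiotic females (1.48 to 2.20 FPKM, against 0.893 to 1.49 FPKM in normal females) by 0.44 ± 0.09 (adjusted p = 0.00971), with -0.06 ± 0.10 in males (adjusted p = 0.832) and a difference of 0.50 ± 0.13 that did not pass (adjusted p = 0.151). Irx1 had 0.30 ± 0.13 in females (adjusted p = 0.297) and 0.26 ± 0.10 over both sexes (adjusted p = 0.131), and Irx6 was listed at 0 in all but 1 heart, a dysbiotic male at 0.0107 FPKM. Among the other connexins and pannexins, 3 of 20 were tested and 0 were called in a microbiome comparison. One of them, Gja4, the arterial connexin 37, had 5.16 to 7.63 FPKM in dysbiotic females, against 6.35 to 7.38 FPKM in normal females. Hcn3, another HCN channel, was below the filter at 0 to 0.0840 FPKM.

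Counts in the lists that follow are to be read against the 5.67% of all genes tested that were called over both sexes (3.34% were called higher), and single calls in short lists show nothing particular to a list. Among the intercalated disc genes, the desmosomal cadherin Dsc2 was higher over both sexes (0.20 ± 0.05, adjusted p = 0.0243). Of 8 tested pacemaker and nodal channel genes, 1 was higher, Kcnj5, a subunit of the acetylcholine-activated potassium channel (0.33 ± 0.08, adjusted p = 0.0160), at 9.77 to 13.1 FPKM in dysbiotic females, against 6.87 to 9.06 FPKM in normal females. In males Kcnj5 had 10.5 to 15.9 FPKM with the dysbiotic microbiome, against 9.39 to 13.1 FPKM with the normal one, overlapping, with a change of 0.19 ± 0.12 (adjusted p = 0.50). Of 12 fast conduction genes, 1 was higher, the ubiquitin ligase Nedd4l (0.11 ± 0.03, adjusted p = 0.0345). Of 15 conduction and chamber transcription factors, 3 were higher and 1 lower. Those higher were Prox1 (0.38 ± 0.06, adjusted p = 0.000895), the myocyte factor Mef2c (0.45 ± 0.09, adjusted p = 0.00650) and Gata4 (0.17 ± 0.05, adjusted p = 0.0275), and Mef2a was lower (-0.14 ± 0.04, adjusted p = 0.0244). Tbx2, a T-box repressor of chamber genes, was higher in females (0.31 ± 0.07, adjusted p = 0.0166), with -0.02 ± 0.07 in males (adjusted p = 0.952). Of 12 genes reported as targets of Irx factors or Tbx5, 0 were higher and 1 lower, the potassium channel Kcna5 (-0.26 ± 0.06, adjusted p = 0.0131). The medians of these lists over both sexes lay between -0.06 for the other connexins and 0.23 for the other Iroquois factors, against 0.02 for all genes tested.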

How the data were processed

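FPKM per gene and library, for 19 libraries, were used as deposited; per the file headers they are FPKM, and the table also holds the authors' fold change (a ratio), its log2 value, a p-value and a q-value. The ratio was checked to equal mean dysbiotic over mean normal FPKM, sexes pooled. Tools named in the submitters' processing notes are HISAT2 2.0.4, cutadapt 1.9, DESeq2 and StringTie 1.3.4d, and the build named there is hg38. The gene IDs are mouse, 99.71% of them in GENCODE M21, whose GRCm38 coordinates are given. The mouse build the authors used is not given in the sources used here. Mitochondrially encoded genes took 51.1% to 57.4% of all FPKM. Between 9.9% and 12.4% of low values lay within 0.02 of a whole read step, so counts were not recovered and depth is unknown, and no counting interval is given.

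The 10866 genes that reached 1 FPKM in 4 or more libraries entered a single limma fit (version 3.58.1 in R 4.3.3, with trended and robust moderation) of log2(FPKM + 1) on the 4 group means. Tests were two-sided, with Benjamini-Hochberg adjustment over all genes tested. The script was tested on simulated data. An exact permutation test had been set for members below the filter, and it was not run because all 9 passed the filter. The members, gene lists and markers were chosen with earlier results of these data known. The named genes are the 9 members, list genes that passed in a microbiome comparison, the other Iroquois factors, Hcn3, and the 3 genes most like each member called over both sexes; Gja4 and Irx3os were added after their values were seen. Some list genes are not reported here. Alternatives covered scaling, filter, pseudocount (0.1), covariates, weights, the replicate number as a block and each library left out in turn. Added after seeing the data were a GC correction (a spline with 4 degrees of freedom per library on transcript GC, known for 99.9% of genes tested), the atrial marker sum as a covariate, and leaving out both dysbiotic heart 5s. Figures used Python 3.11.15, pandas 2.3.3 and matplotlib 3.10.9.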

Additional observations from a re-analysis of the deposited data

Results flagged for a closer look

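In groups of 4 or 5 hearts, 4 values stood apart from the rest of their group among the 36 combinations of gene and group examined, where chance flags about 1 in 20. Irx3 was at 7.28 FPKM in male dysbiotic heart 5, against 4.28 to 4.61 FPKM in the other 4. Irx5 was at 2.74 FPKM in the same heart, against 1.28 to 1.67 FPKM. Hcn4 was at 1.49 FPKM in female dysbiotic heart 2, against 1.18 to 1.26 FPKM in the other 4, and at 1.00 FPKM in male normal heart 4, against 1.21 to 1.22 FPKM in the other 3. The response of Hcn2 to the microbiome differed between the sexes by 0.42 on the log2 scale, females minus males (adjusted p = 0.0346 by limma), and by -0.07 after the GC correction (adjusted p = 0.856).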

How the results depend on the processing

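Read depth is unknown, so counting error could not be given. Irx4 kept its direction and its 3 microbiome calls under every alternative run. Of the 9 genes, those called over both sexes numbered 3 in the reported fit and 1 with no expression filter or no sex term, and in males 2, against 1 with no filter, with the replicate number as a block, or with males fitted alone. In females the count was 2, and 1 with upper-quartile scaling, no filter or the GC correction and 4 with array weights. For the difference between the sexes in the response it was 1, and 2 without both dysbiotic heart 5s. It was 0 with no filter or the GC correction. Over all genes tested, 411 were higher and 174 lower in females with array weights, against 202 and 107 in the reported fit. For the difference, 90 were higher and 1 lower without both dysbiotic heart 5s, against 41 and 2 in the reported fit. With no filter these were 22 and 0, and with the GC correction 57 and 36. Leaving out 1 heart in turn gave counts of 2 to 3 over both sexes, 1 to 3 in males, 1 to 3 in females, 0 to 2 for the difference and 4 to 6 between the sexes. The replicate numbers did not pair the hearts, with correlations of same-numbered deviations from -0.437 to 0.462; with the replicate block, Gja5 in males had 0.51 (adjusted p = 0.0599), and in 1 of 9 pairs the heart correlated best with its own number.

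Signs changed as follows. With the GC correction, Irx3 in males was 0.02, Irx4 between the sexes -0.072, Hcn4 in males -0.039, Hcn2 in females -0.14 (0.20 as reported), and the difference in response -0.29 for Irx5 (0.19 as reported) and -0.067 for Hcn2 (0.42 as reported, where it was called). The difference in response of Gjc1 was 0.0011 with the replicate block, 0.013 with array weights and 0.019 without both dysbiotic heart 5s. Tbx5 in females was 0.0076 and 0.018 under the last 2 of these. Hcn2 over both sexes was 0.0083 with array weights and 0.0056 with additive terms, and Hcn4 in males was -0.0019 with median-ratio scaling. Leaving out 1 heart in turn gave -0.043 to 0.026 for the difference of Gjc1, -0.11 to 0.017 for that of Irx4, -0.15 to 0.024 for Irx3 in males, -0.036 to 0.018 for Tbx5 in females, -0.029 to 0.01 for Hcn2 over both sexes and -0.068 to 0.092 for Hcn4 in males. The share of higher among all genes called over both sexes was 58.9%, and 42.2% with median-ratio scaling; their number was 616, and 270 with no sex term. The cause of these shifts was not tested.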
